A study of Mus musculus with 18 samples.

Results

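RNA levels of 10 genes of the IL-6, IL-10 and IL-12 cytokine families were followed in mouse bone marrow-derived macrophages (BMDMs) that carried or lacked miR-146a. The genes were the rows of the count table named Il6, Il10, Il12a, Il12b, Il23a, Il27, Ebi3, Il10ra, Il6ra and Il6st, 10 of the 21734 protein-coding genes listed. They encode 7 ligand subunits and 3 receptor chains. Of the 10, 8 had enough counts to be among the 11357 genes tested, while Il12a and Il23a did not and are given as counts.

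BMDMs are macrophages grown from marrow in M-CSF, here at 10 ng/ml for 8 to 9 days. The mice were of a 129/B6 mix and aged 6 to 7 months by the study's methods for the culture. For the protein samples, which the study describes as split from the same replicates, its methods give younger mice, so the age is not settled. WT mice carried the normal miR-146a, KO mice had the microRNA deleted, and 3F mice carried an allele that keeps the seed of miR-146a while part of its 3′ region is exchanged. Cultures of each genotype were harvested 16 h after a medium change, either without LPS (resting) or with 1 ng/ml LPS, a bacterial product sensed by TLR4. Each of the 6 groups held 3 libraries, 18 in all. All groups shared the strain mix, the M-CSF culture and the medium change. The KO and 3F lines came from separately targeted embryonic stem cells and were kept as separate colonies. By the study's methods WT mice were drawn equally from both lines, but the labels do not tie a WT library to a line, so line was not a term of any fit. Between KO and 3F an effect of the allele and an effect of the line cannot be told apart. KO or 3F against WT carries the same limit in part, since each mutant came from its own line and WT mice from both. miR-146a is not a row of the protein-coding table, so its loss was not checked here.

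IL-6 signals through IL-6 receptor alpha (Il6ra) and the shared chain gp130 (Il6st), mainly to STAT3. IL-10 signals through IL-10 receptor alpha (Il10ra) and Il10rb, also to STAT3, and restrains inflammatory cytokines in macrophages. The IL-12 family is built from pairs of subunits: Il12b (p40) joins Il12a (p35) to make IL-12 or Il23a (p19) to make IL-23, and Ebi3 joins Il27 (p28) to make IL-27. Activated macrophages are a main source of these cytokines, and miR-146a is known for restraining TLR signals that induce them.

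The microRNA sequences show what separates the genotypes. Capitals mark the seed, bases 2 to 8, which is the same in both.
miR-146a-5p: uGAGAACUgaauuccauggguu
3F strand: uGAGAACUgaauaagugucc
The first sequence is the mature strand in RefSeq (GRCm38.p6, chr11:43374435-43374456, minus strand), and the second is the synthetic 3F strand in the study's list of oligonucleotides. The strands are alike from base 1 to base 12, and at 12 of the 20 positions compared.

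A seed site of 8 bases in an mRNA matches bases 2 to 8 of the microRNA and has an A opposite base 1. A site of 7 bases either matches bases 2 to 8 or matches bases 2 to 7 and has that A, and a site of 6 bases matches bases 2 to 7 alone. Among the 10 genes, 2 held a site of 7 or 8 bases in their longest annotated 3′ UTR, where 18.1% of 21037 genes with a 3′ UTR hold one. Both are receptor chains, and they had the longest 3′ UTRs of these genes, at 5641 bases in Il6st and 7102 in Il6ra. Il10ra came next at 1693 bases, and the sites were not weighed by UTR length. Il6st held 1 site of 8 bases and 1 of 7 that matches bases 2 to 8, and Il6ra held 1 of 7 that matches bases 2 to 7 with the A. With sites of 6 bases counted as well, Il6 and Il12a joined them, so that 4 of 10 held a site, against 29.7% of all genes. Capitals mark the site, the A opposite base 1 included where the site has it.
Il6st, chr13:112507733-112507757, plus strand: gaagaactcgaAGTTCTCAgctgtg
Il6st, chr13:112509130-112509154, plus strand: cacgtgcgcacAGTTCTCtctcctt
Il6ra, chr3:89864095-89864119, minus strand: tagcccacttgtGTTCTCAggactc
No site of 6 bases or more stood in the longest 3′ UTR of Il10, Il12b, Il23a, Il27, Ebi3 or Il10ra.

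Library totals ran from 4071084 to 19818043 counts. Resting KO replicate 3 stood apart on the first principal component, at 19.7 against -28.2 and -31.5 for the other resting KO libraries, and resting 3F replicate 3, the smallest library, stood apart on the second, at 50.3. Results that rest on them are also given without both. The share of all genes called without both is not given, so those counts have no share to be read against. The cells carried the macrophage label in their RNA: all 7 macrophage markers passed the filter, with Csf1r at 992 CPM or more in each library (CPM, counts per 1000000 of scaled library size). The summed macrophage markers were higher in KO, at 59489 to 61539 CPM in resting KO against 31118 to 47144 in resting WT, and at 69391 to 86456 against 44065 to 58283 with LPS. In 3F they ran from 41886 to 61510 CPM at rest, which reached the KO range, and from 48599 to 58971 with LPS. Lyz2 made up most of each sum, at 26461 to 75160 CPM over all libraries, while Adgre1, the next highest, reached 4895 CPM. The sums therefore read mainly Lyz2, and the other macrophage markers are not given by genotype. The part of these sums in the results was not tested. Of 5 dendritic cell, 4 B cell, 3 NK cell and 3 mast cell markers none passed the filter, and in each library the sum of each list was at or under 2.34 CPM. Of 4 T cell markers Cd4 alone passed (summed levels 0.449 to 11.2 CPM), 1 of 4 fibroblast markers passed (0.197 to 2.86 CPM), and 3 of 5 neutrophil markers passed (12.4 to 62.7 CPM).

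The levels of the 10 genes spanned a wide range. Per kb of exon, WT macrophages with LPS held most Il10ra, at 52.4 ± 8.35 CPM per kb (SD, n = 3), then Ebi3, at 32.8 ± 2.53. Il6st followed at 10.7 ± 0.427 CPM per kb and lay above Il6ra, at 6.76 ± 0.790, in each library. Il10 stood at 6.34 ± 5.14 CPM per kb, with 1 library above all of Il6st, so it could not be placed against either chain beyond its spread. Il27, at 3.64 ± 2.45, and Il12b, at 3.31 ± 2.01, could not be ordered against each other or against Il10. Il6 stood at 0.196 ± 0.0968 CPM per kb, Il12a at 0.140 ± 0.164 and Il23a at 0.0351 ± 0.0304. Il6, Il12a and Il23a were therefore read from a few reads per library even with LPS.

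The LPS response of each genotype asks which of these genes the bacterial stimulus moves 16 h on. In WT 5 of the 8 genes tested were called (adjusted p under 0.05, edgeR quasi-likelihood test with Benjamini-Hochberg adjustment over all genes), against 28.5% of all 11357 genes. All 5 rose: Il10, Il12b, Il27, Ebi3 and Il10ra. In KO 5 were called, against 26.9% of all genes, with Il6, Il12b, Il27 and Ebi3 higher and Il6st lower. In 3F 4 were called, against 31.2%, namely Il12b, Il27, Ebi3 and Il10ra, all higher. The median log2 response of the 5 ligand subunits tested was 2.48 in WT, 1.94 in KO and 2.04 in 3F, where the median of all genes was 0.016, 0.0185 and -0.0085. With genes at or under 3 counts in each resting library set to the bound that 3 counts allow, the WT median was 2.03 and the other medians did not move. The KO median is the value of Il27 and was 3.00 without resting KO replicate 3, above that of WT, so no order of the genotypes was read from these medians. For the 3 receptor chains the medians were -0.36, -0.31 and 0.04. Without both libraries that stand apart, 6 genes were called in KO and 5 in 3F, among them Il6st in both and Il6ra in KO, all 3 lower.

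Both subunits of IL-27 rose in all 3 genotypes. Ebi3 (ENSMUSG00000003206, chr17:55952640-55957022, plus strand) stood at 7.16, 13.4 and 14.4 CPM in resting WT and at 37.2, 36.2 and 41.8 CPM with LPS. In KO it stood at 16.1, 15.6 and 22.8 CPM at rest and at 53.9, 56.4 and 52.8 CPM with LPS. In 3F it stood at 11.6, 12.7 and 5.38 CPM at rest and at 41.3, 42.3 and 46.2 CPM with LPS. No LPS library overlapped a resting library of its genotype, and the 3 KO libraries with LPS lay above every WT and 3F library. The log2 response was 1.73 ± 0.25 (SE) in WT, 1.59 ± 0.24 in KO and 2.04 ± 0.25 in 3F, with adjusted p values of 9.33e-05, 0.000145 and 2.05e-05.

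Il27 (ENSMUSG00000044701, chr7:126589010-126594941, minus strand) stood lower. It held 0.197, 0.301 and 0.677 CPM in resting WT and 2.93, 1.71 and 6.52 CPM with LPS. In KO it held 1.42, 0.612 and 4.94 CPM at rest and 7.23, 9.78 and 8.13 CPM with LPS. In 3F it held 0.677, 0.406 and 0.468 CPM at rest and 4.98, 4.33 and 3.85 CPM with LPS. Each LPS library lay above the resting libraries of its genotype, and resting KO replicate 3 reached the range of WT and 3F with LPS. The log2 response was 3.30 ± 0.70 in WT (adjusted p 0.00220), 1.94 ± 0.54 in KO (0.0133) and 3.03 ± 0.67 in 3F (0.00274). Without resting KO replicate 3 the KO response was 3.00 (adjusted p 0.000189), close to the other 2. In KO the call was lost without resting replicate 1 or 2 and in the fit of the compared groups, with an adjusted p of 0.0695 at most over all alternatives and 8.96e-06 at least. Per kb, Ebi3 exceeded Il27 in all 18 libraries, by 4.03-fold in resting KO replicate 3 to 38.8-fold in resting WT replicate 2.

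Il12b, the p40 subunit of IL-12 and IL-23, went from nearly no reads to a clear level in every genotype. Il12b (ENSMUSG00000004296, chr11:44400063-44414033, plus strand) had 0 counts in each resting library of WT, 3, 0 and 0 counts in resting KO and 1, 3 and 0 counts in resting 3F. With LPS it had 30, 142 and 106 counts in WT, 53, 33 and 50 in KO and 65, 34 and 79 in 3F. In CPM the LPS levels were 2.09, 9.69 and 7.77 in WT, 3.65, 2.39 and 3.57 in KO, and 4.76, 1.86 and 10.1 in 3F. WT and 3F libraries differed among themselves by more than 4-fold, and the KO libraries fell inside their range. Against a floor of 3 counts per library, Il12b was at least 27.4-fold higher with LPS in WT (adjusted p 0.000157). The ratio of summed counts was 40.9 in KO (95% interval 13.7 to 200.5, counting error only, adjusted p 0.00162) and 44.0 in 3F (16.9 to 163.2, adjusted p 0.000640).

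The partners of Il12b stayed near the floor. Il12a (ENSMUSG00000027776, chr3:68690644-68698547, plus strand) had 0 counts in all resting WT and KO libraries and 0, 1 and 4 counts in resting 3F. With LPS it had 0, 2 and 6 counts in WT, 7, 7 and 8 in KO and 1, 6 and 1 in 3F. Each KO library with LPS held more Il12a than any WT or 3F library with LPS, though only by 1 count at the nearest. In CPM the highest Il12a level of all 18 libraries was that of resting 3F replicate 3, the smallest library, at 0.936. The ratio of summed counts with LPS was 2.77 for KO over WT (1.19 to 7.19, counting error only) and 2.58 for KO over 3F (1.11 to 6.70). In KO the gene was at least 2.08-fold higher with LPS than at rest against the floor. Il23a (ENSMUSG00000025383, chr10:128296139-128298752, minus strand) had 0 or 1 counts in every library, with 3 counts over all 18, so no difference was detectable at this depth.

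**Figure D1:**
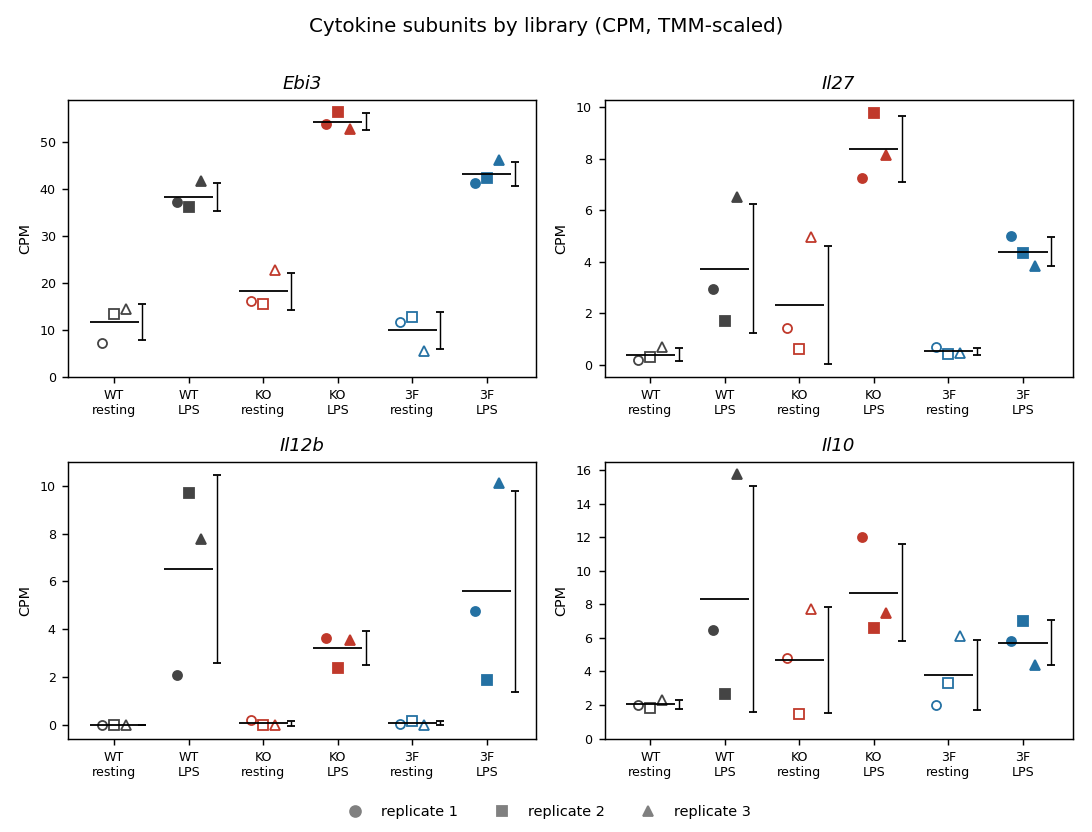
CPM of Ebi3, Il27, Il12b and Il10 in each library (linear axis), by genotype and state, with the mean (line) and SD (bar) of 3 libraries, open symbols at rest and filled symbols with LPS. Ebi3 and Il27 were highest in the KO libraries with LPS, Il12b was at 3 counts or fewer in each resting library, and Il10 overlapped between rest and LPS in KO and 3F.

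Il10, the ligand that restrains this response, rose with LPS by the test in WT alone. Il10 (ENSMUSG00000016529, chr1:131019845-131024974, plus strand) stood at 1.97, 1.81 and 2.32 CPM in resting WT and at 6.49, 2.66 and 15.8 CPM with LPS. In KO it stood at 4.82, 1.45 and 7.75 CPM at rest and at 11.98, 6.59 and 7.49 CPM with LPS. In 3F it stood at 1.98, 3.30 and 6.09 CPM at rest and at 5.79, 7.01 and 4.36 CPM with LPS. The WT groups did not overlap, but WT with LPS had the widest spread of the 6 groups and the KO and 3F groups overlapped. The log2 response was 2.03 ± 0.60 in WT (adjusted p 0.0190), 0.93 ± 0.56 in KO (0.239) and 0.78 ± 0.60 in 3F (0.339). Without WT replicate 3 with LPS the WT response was 1.18 (adjusted p 0.170), and without resting WT replicate 1 or 2 the adjusted p was 0.0570 or 0.0667. Over all alternatives it ran from 0.00256 to 0.170. The responses were not shown to differ: the KO response minus the WT response was -1.10 ± 0.82 (log2) and the 3F response minus the WT response was -1.25 ± 0.85 (adjusted p 1.00 and 0.975).

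Il6 was read from few counts, and most of them came from KO with LPS. Il6 (ENSMUSG00000025746, chr5:30013114-30019981, plus strand) had 1, 2 and 0 counts in resting WT, 0, 0 and 1 in resting KO and 4, 0 and 1 in resting 3F. With LPS it had 6, 4 and 10 counts in WT, 47, 13 and 27 in KO and 7, 1 and 3 in 3F. The lowest KO library with LPS stood above the highest WT and 3F libraries. In KO the ratio of summed counts with LPS to rest was 78.4 (13.7 to 3132, counting error only, adjusted p 0.000533), a wide interval because the resting libraries held 1 count in all. In WT the ratio was 6.08 (1.802 to 31.9) and in 3F 2.18 (0.697 to 7.99), with adjusted p values of 0.0865 and 0.446.

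**Figure D2:**
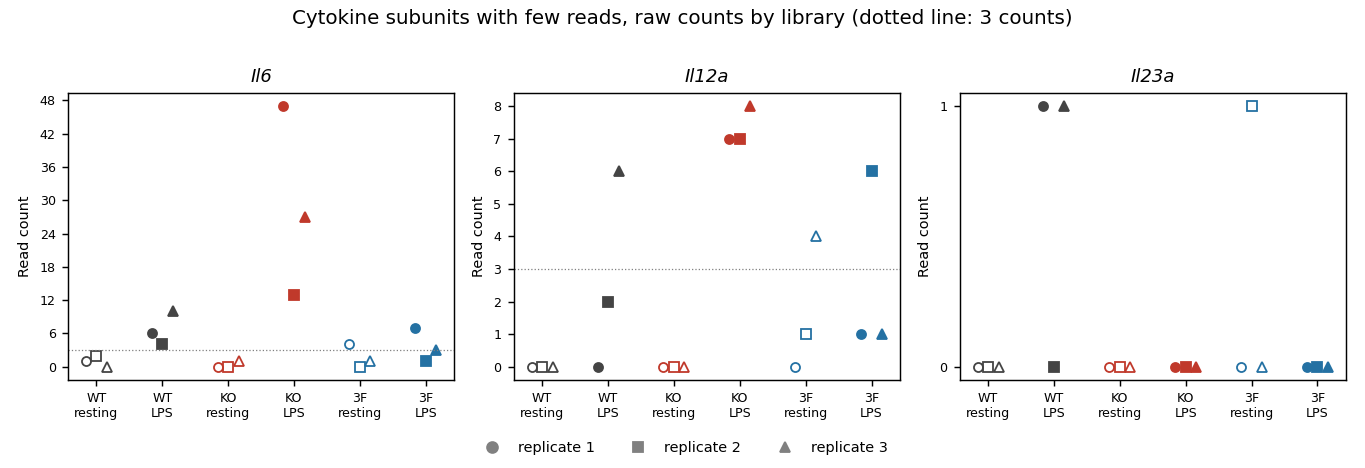
Raw read counts of Il6, Il12a and Il23a in each library (linear axis, scaled separately), open at rest and filled with LPS, with a dotted line at 3 counts. Il6 reached 13 to 47 counts and Il12a 7 or 8 counts in KO with LPS, and Il23a had at most 1 count in a library.

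The regions before the start sites are shown for 3 subunits that rose with LPS in at least 1 genotype, Ebi3, Il12b and Il6, each from 250 bases before to 50 bases after the RefSeq start (GRCm38.p6, plus strand). Capitals mark the letters GGG, 5 bases of any kind and CC, a form of the NF-kB motif, and TTNNGNAA, a form of the C/EBP motif, on either strand.
Ebi3, chr17:55952373-55952672: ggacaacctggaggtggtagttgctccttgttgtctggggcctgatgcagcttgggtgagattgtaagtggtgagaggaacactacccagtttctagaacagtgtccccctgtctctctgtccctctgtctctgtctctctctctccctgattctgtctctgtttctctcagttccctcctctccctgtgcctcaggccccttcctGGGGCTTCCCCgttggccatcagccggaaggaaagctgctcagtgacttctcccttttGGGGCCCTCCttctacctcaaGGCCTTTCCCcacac
Il6, chr5:30012864-30013163: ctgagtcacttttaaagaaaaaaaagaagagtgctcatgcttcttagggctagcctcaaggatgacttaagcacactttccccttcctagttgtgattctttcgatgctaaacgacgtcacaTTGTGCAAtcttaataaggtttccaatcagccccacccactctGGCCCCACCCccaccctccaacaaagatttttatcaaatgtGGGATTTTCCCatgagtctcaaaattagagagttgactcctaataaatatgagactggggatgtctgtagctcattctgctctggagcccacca
Il12b, chr11:44399813-44400112: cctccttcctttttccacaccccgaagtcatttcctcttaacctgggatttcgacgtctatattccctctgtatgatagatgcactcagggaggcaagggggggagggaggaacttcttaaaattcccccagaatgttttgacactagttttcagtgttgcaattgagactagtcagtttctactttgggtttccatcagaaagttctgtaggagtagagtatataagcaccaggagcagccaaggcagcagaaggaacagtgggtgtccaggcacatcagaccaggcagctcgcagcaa
In Ebi3 the NF-kB letters stood from -44 to -34 (matches on both strands that overlap), from 15 to 24 and from 36 to 45, counted from the start site. In Il6 they stood from -85 to -76 and from -44 to -34, and the C/EBP letters stood from -128 to -121. Neither set of letters was in the Il12b window. Looser forms of either motif were not searched, so this does not show that the window lacks such sites. The letters are common: 50.8% of 32851 promoters of this length held the NF-kB form and 40.7% the C/EBP form, so a match is a description of the window only. Of 7 member windows, Il12a having more than 1, 5 held the NF-kB form, Il6ra and Il6st among them, and 2 the C/EBP form.

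Among the receptor chains Il10ra rose with LPS in WT and 3F, and Il6st fell in KO. Il10ra (ENSMUSG00000032089, chr9:45253837-45269149, minus strand) stood at 116, 94.4 and 127 CPM in resting WT and at 177, 144 and 199 CPM with LPS. In KO it stood at 206, 186 and 184 CPM at rest and at 222, 270 and 209 CPM with LPS. In 3F it stood at 115, 117 and 105 CPM at rest and at 177, 202 and 150 CPM with LPS. Resting KO, at 184 to 206 CPM, lay above all resting WT and 3F libraries and reached the level of WT and 3F with LPS. LPS raised Il10ra by 0.63 ± 0.15 (log2, SE) in WT and by 0.65 ± 0.15 in 3F (adjusted p 0.00448 and 0.00347), and its response in KO was 0.28 ± 0.15 (adjusted p 0.166). The difference of the KO response from that of WT was -0.34 ± 0.21 (adjusted p 1.00) and was not called.

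Il6st (ENSMUSG00000021756, chr13:112464070-112510086, plus strand), the gp130 chain shared by the IL-6 family, stood at 140, 178 and 163 CPM in resting WT and at 118, 113 and 123 CPM with LPS. In KO it stood at 174, 163 and 138 CPM at rest and at 124, 103 and 107 CPM with LPS. In 3F it stood at 176, 168 and 102 CPM at rest and at 110, 116 and 105 CPM with LPS. Resting 3F replicate 3 lay below every LPS library, and no other resting library overlapped the LPS range of its genotype. The log2 response was -0.44 ± 0.16 in WT (adjusted p 0.0524), -0.51 ± 0.16 in KO (0.0266) and -0.44 ± 0.16 in 3F (0.0512), so the estimates lay close together on both sides of the threshold. The WT response was called in 6 of 12 alternatives (adjusted p from 0.000570 to 0.187) and the 3F response in 5 of 13. The KO call was lost when any of 4 of its 6 libraries was left out, resting replicate 1 or 2 or LPS replicate 2 or 3, with adjusted p values up to 0.110. Without both libraries that stand apart it was -0.68 in KO and -0.68 in 3F, both called, within adjusted p values from 4.53e-05 to 0.110 and from 2.35e-05 to 0.204 over all alternatives.

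Il6ra (ENSMUSG00000027947, chr3:89864059-89913196, minus strand), which binds IL-6 itself, was not called for LPS in any genotype. In WT it held 72.6, 79.6 and 73.1 CPM at rest and 66.3, 53.9 and 55.1 CPM with LPS. In KO it held 97.2, 93.5 and 65.6 CPM at rest and 74.4, 68.5 and 64.6 CPM with LPS. In 3F it held 65.2, 73.5 and 43.3 CPM at rest and 58.1, 70.4 and 59.9 CPM with LPS. The WT groups did not overlap, and in KO and 3F the third replicate was the lowest at rest and the groups overlapped. The log2 response was -0.36 ± 0.17 in WT, -0.31 ± 0.17 in KO and 0.04 ± 0.17 in 3F, with adjusted p values of 0.131, 0.204 and 0.887. Per kb, Il6st exceeded Il6ra in all 18 libraries, by 1.18-fold to 2.11-fold.

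**Figure D3:**
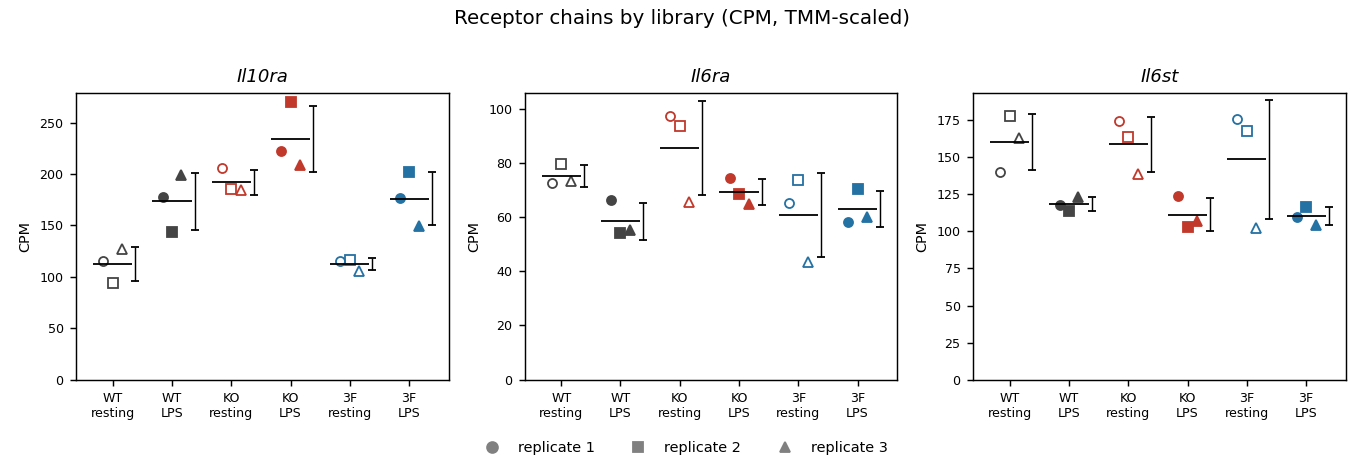
CPM of the receptor chains Il10ra, Il6ra and Il6st in each library (linear axis from 0), by genotype and state, with the mean (line) and SD (bar) of 3 libraries, open symbols at rest and filled symbols with LPS. Resting KO libraries held 184 to 206 CPM of Il10ra, above the 94.4 to 127 CPM of resting WT and 3F, while Il6st did not separate by genotype.

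KO was compared with WT to find which genes differ where miR-146a is missing. At rest 2 of the 8 genes were called, against 9.4% of all genes, and both were higher in KO: Il10ra and Il27. Il10ra differed by 0.77 ± 0.15 (log2, SE), a fold of 1.71, with an adjusted p of 0.00458, and the groups did not overlap. It was called in each of 13 alternatives, each of the 6 libraries left out in turn included, with adjusted p values from 3.52e-05 to 0.0338. Il27 differed by 2.53 ± 0.74 with an adjusted p of 0.0411, but resting KO replicate 2 (0.612 CPM) fell within the WT range. Without resting KO replicate 3 the difference was 1.49 (adjusted p 0.209). Without resting WT replicate 1, 2 or 3 the adjusted p was 0.161, 0.135 or 0.0524, and over all alternatives it ran from 0.00263 to 0.209. Without both libraries that stand apart 2 genes were called, Il10ra and Il6ra, and Il27 was not. The summed neutrophil markers ran from 13.4 to 50.7 CPM in resting KO and from 12.95 to 20.8 in resting WT, and their part in the result was not tested.

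The other genes in resting KO were not called. Ebi3 lay above WT in 3 of 3 libraries, with a difference of 0.64 ± 0.25 (adjusted p 0.125). Il10 differed by 1.17 ± 0.62 (adjusted p 0.278), Il6ra by 0.19 ± 0.17 (0.570) and Il6st by -0.01 ± 0.16 (0.979). Il6 and Il12b were at or under 3 counts in each resting WT and KO library.

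With LPS 0 of the 8 genes were called between KO and WT, against 4.79% of all genes. An unadjusted p under 0.05 was reached by 4 of the 8 and by 2041 of the 11357 genes. The 4 were Il6, Il27, Ebi3 and Il10ra, all higher in KO. DESeq2 also called 0, the fit of the compared groups 1, the fit with a replicate block 1 and limma-voom with quality weights 3. The share of all genes called in these other fits is not given, so their counts have no share to be read against. Il6 differed by 2.09 ± 0.65 (adjusted p 0.0733) and Il10ra by 0.43 ± 0.15 (0.103). Il27 differed by 1.17 ± 0.50 (adjusted p 0.223) and Ebi3 by 0.50 ± 0.23 (0.269). The KO and WT libraries did not overlap for any of these 4. The 4 genes were picked by p value, and the share of all genes without overlap is not given, so this is a description only. Il12b was the only tested ligand with a lower mean in KO, by -1.02 ± 0.58 (adjusted p 0.398, 95% interval -2.27 to 0.22), and the groups overlapped. Il12b and miR-146a lie near each other on chromosome 11, at 44400063 to 44414033 and at 43374435 to 43374456. A part of the line, or of DNA near the edited locus, was not tested in this or any other Il12b difference between genotypes. Il10 differed by 0.07 ± 0.53 (adjusted p 0.970, 95% interval -1.06 to 1.20).

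KO was also compared with 3F, which keeps the seed. In resting macrophages 1 of the 8 genes was called, against 12.9% of all genes. It was Il10ra, higher in KO by 0.77 ± 0.15 (adjusted p 0.00616). It was called without any single library, and was not called when the compared groups were fitted alone (adjusted p 0.0886, from 4.50e-05 to 0.0886 over all alternatives). Ebi3 was next, at 0.78 ± 0.25 (adjusted p 0.0513), and each KO library lay above all 3F libraries. Without both libraries that stand apart 2 genes were called, Il10ra and Il6ra. With LPS 1 gene was called, against 3.88% of all genes. It was Il6, higher in KO by 2.78 ± 0.71 (adjusted p 0.0389), and the groups did not overlap at 13 to 47 against 1 to 7 counts. The call was lost when any 1 of the 6 KO and 3F libraries with LPS was left out, with adjusted p values from 0.0520 to 0.178. KO against WT and KO against 3F share the KO libraries.

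3F was compared with WT to ask what the exchanged 3′ region changes. No gene of the 8 was called at rest, against 0% of all genes, nor with LPS, against 0.00881% (1 gene of 11357), by edgeR, by DESeq2 or under any other alternative run. None of the 8 reached an unadjusted p under 0.05 in either state, where 557 genes of 11357 did at rest and 106 with LPS. For Il10ra the difference at rest was 0.004 ± 0.15 (95% interval -0.31 to 0.31) and with LPS 0.02 ± 0.15 (-0.29 to 0.33). For Ebi3 it was -0.14 ± 0.26 at rest (-0.68 to 0.40) and 0.17 ± 0.23 with LPS (-0.33 to 0.66). The resting Il10ra difference of KO from WT, 0.77, lies outside the interval for 3F. The intervals were wide for the genes with fewer counts. For Il27 they ran from -1.35 to 2.40 at rest and from -0.85 to 1.35 with LPS, and for Il10 from -0.65 to 2.12 and from -1.67 to 0.65. For Il6 with LPS the interval ran from -2.43 to 1.06, and for Il12b from -1.51 to 0.94.

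The LPS response itself was then compared between genotypes. For KO against WT 0 of the 8 genes were called, against 0.00881% of all genes, and for 3F against WT 0 were called, against 0% of all genes. None of the 8 reached an unadjusted p under 0.05 in either comparison, where 560 of 11357 genes did for KO and 203 for 3F. DESeq2 and each other alternative also called 0. The lowest unadjusted p values were 0.105 for Il6 in KO and 0.120 for Il6ra in 3F.

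**Figure D4:**
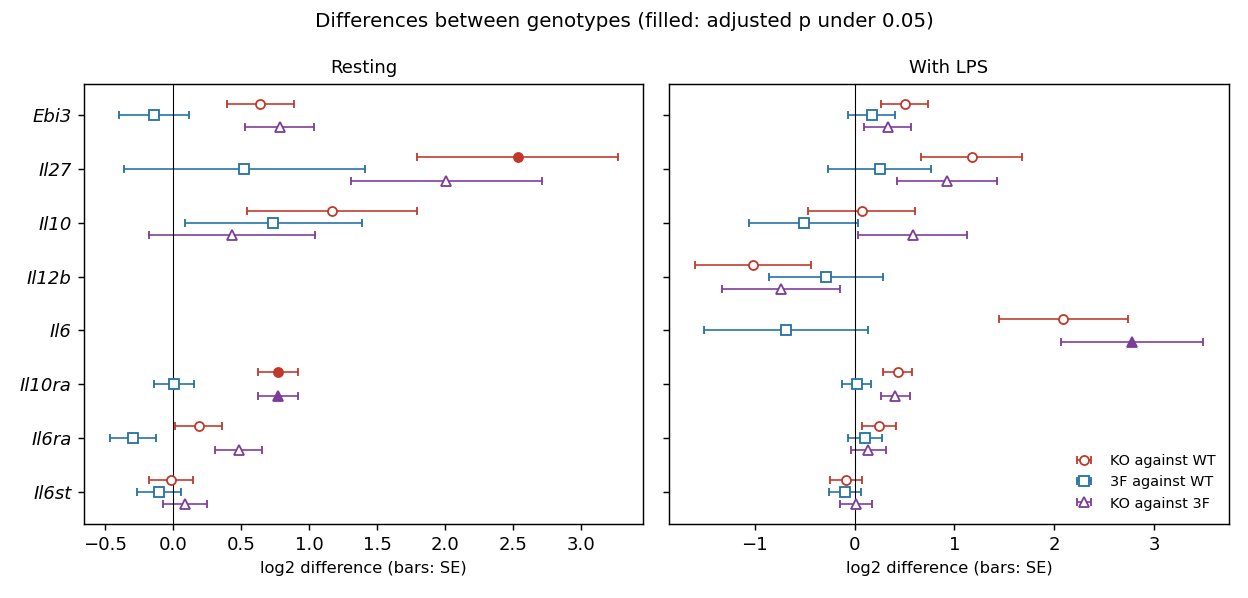
Log2 differences between genotypes with their SE for the 8 genes tested, at rest (left) and with LPS (right), filled where the adjusted p was under 0.05. Il12b and Il6 are not drawn at rest, where no library held more than 4 counts of either. The filled points are Il10ra and Il27 in KO against WT at rest, Il10ra in KO against 3F at rest and Il6 in KO against 3F with LPS, and no 3F against WT point is filled.

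Other ligands of the families were mostly not detected at this depth. Of 11 such genes, Lif, Osm, Il11, Il19 and Il22 among them, 3 passed the filter. Osm, which encodes the gp130 ligand oncostatin M, was called lower with LPS in each genotype, from 11.2 to 12.3 CPM in resting WT to 3.96 to 4.71 CPM, a log2 response of -1.40 ± 0.27 (adjusted p 0.00130). In KO it was -1.59 ± 0.29 and in 3F -1.55 ± 0.28 (adjusted p 0.000663 and 0.000708). Resting KO replicate 3 held 3.71 CPM of Osm, below the other resting libraries. Cntf was called lower in KO as well, and none was called between genotypes.

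Of 11 other receptor chains 8 passed. With LPS 2 of the 8 rose in WT and in 3F, Il20rb and Il23r, where 28.5% and 31.2% of all genes were called, and in KO Lifr rose as well while Il12rb2 fell, 4 of 8 where 26.9% of all genes were called. Il10rb, the partner of Il10ra, was not called in any comparison and ran from 137 to 164 CPM over the 18 libraries. Il23r, which with Il12rb1 binds IL-23, held 1, 0 and 0 counts in resting WT and 1.64 to 3.30 CPM with LPS, a ratio of summed counts of 101 (17.8 to 4031, counting error only, adjusted p 0.00434). With LPS it ran from 6.92 to 8.04 CPM in KO, and resting KO replicate 3 held 18 counts where the other resting KO libraries held 3 and 0. The Il23r call was lost in KO with DESeq2 (adjusted p from 1.23e-06 to 0.0561 over the alternatives) and in 3F in 5 alternatives (1.76e-06 to 0.192), those without resting 3F replicate 1 or 2 or LPS replicate 2 included.

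Lifr, the receptor that joins gp130 to bind LIF, was the only chain of these 8 called between KO and WT. It was called with LPS, where 4.79% of all genes were called. Lifr was also the only chain called between KO and 3F, where 12.9% of all genes were called at rest and 3.88% with LPS. With LPS it held 28.3, 21.2 and 21.97 CPM in KO, 10.6, 9.55 and 14.0 CPM in WT and 9.75, 12.7 and 10.3 CPM in 3F. The KO level exceeded that of WT by 1.07 ± 0.18 (adjusted p 0.00382) and that of 3F by 1.12 ± 0.18 (adjusted p 0.00347), called in each alternative. At rest it ran from 12.2 to 16.1 CPM in KO and from 7.73 to 8.75 in 3F, a difference of 0.70 ± 0.19 (adjusted p 0.0270). That call was lost in 5 alternatives, without resting KO replicate 3 and without resting 3F replicate 1 or 3 among them, with adjusted p values from 0.00940 to 0.161.

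Downstream of the receptors, the kinase gene Jak2 and the factor gene Stat3 rose with LPS in each genotype. Jak2 acts below gp130, and Stat3 below gp130 and the IL-10 receptor. They were named after their values were seen. Jak2 rose by 1.60 ± 0.20 (log2, SE) in WT, by 1.45 ± 0.20 in KO and by 1.86 ± 0.21 in 3F (adjusted p 2.98e-05, 6.11e-05 and 6.44e-06). Stat3 rose by 1.00 ± 0.21 in WT, by 0.82 ± 0.21 in KO and by 1.32 ± 0.22 in 3F (adjusted p 0.00254, 0.00904 and 0.000279). Neither was called between KO and WT. At rest Jak2 exceeded its 3F level in KO by 0.73 ± 0.20 and Stat3 by 0.82 ± 0.21 (adjusted p 0.0272 and 0.0221), and without both libraries that stand apart neither was called there.

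The 6 genes that STAT3 induces downstream of IL-10 or IL-6 (Socs3, Bcl3, Nfil3, Etv3, Sbno2 and Il4ra) all rose with LPS in WT and in 3F, where 28.5% and 31.2% of all genes were called, and 4 rose in KO, where 26.9% were. Their median log2 response was 1.31 in WT, 0.79 in KO and 1.39 in 3F, beside 0.016, 0.0185 and -0.0085 for all genes. Socs3, the feedback inhibitor of gp130 signalling, rose by 3.67 ± 0.35 in WT, by 3.82 ± 0.34 in KO and by 3.69 ± 0.35 in 3F (adjusted p 1.55e-06, 7.66e-07 and 1.39e-06). Bcl3 was the only one of the 6 called between KO and WT, at rest, where 9.4% of all genes were called, at 6.85 to 11.7 CPM against 1.77 to 6.58, by 1.24 ± 0.34 (adjusted p 0.0316), a call lost in 6 alternatives (adjusted p from 0.00391 to 0.198), among them those without replicate 1 or 2 of either resting group and the fit with a replicate block (adjusted p 0.0503). Without both libraries that stand apart 3 of the 6 were called in resting KO against WT. In resting KO against 3F, where 12.9% of all genes were called, 3 were called, Bcl3, Nfil3 and Sbno2, and 1 without those libraries.

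Among 11 factors that act on the transcription or decay of Il6, Il10 or Il12b RNA (Rel, Nfkbiz, Irf1, Irf5, Irf8, Cebpb, Cebpd, Maf, Zc3h12a, Zfp36 and Arid5a), 6 rose with LPS in WT and 6 in 3F, and in KO 5 rose while Zfp36 fell, where 28.5%, 31.2% and 26.9% of all genes were called. In resting KO against WT 5 of the 11 were called, against 9.4% of all genes, all higher: Nfkbiz, Irf1, Irf5, Cebpb and Cebpd, with a median of 0.66 over the 11 where the median of all genes was 0.0169. Irf1, a factor of the interferon response, stood at 105, 95.2 and 154 CPM in resting KO and at 41.6, 38.2 and 50.6 in resting WT, a difference of 1.44 ± 0.26 (adjusted p 0.00368), called in each alternative. Without both libraries that stand apart 8 of the 11 were called, all higher in KO, and the share of all genes called in that fit is not given. With LPS Cebpd alone was called between KO and WT, by 0.64 ± 0.17 (adjusted p 0.0408), a call lost without any 1 of the 6 libraries and with a replicate block (adjusted p 0.0550, from 0.000383 to 0.162 over the alternatives), and Cebpb alone between KO and 3F, by 0.71 ± 0.16 (adjusted p 0.0183), a call lost without KO replicate 1 or 2 or 3F replicate 2 or 3 (adjusted p from 0.000898 to 0.0943). None of the other genes named from these lists was called between 3F and WT or in a difference of the LPS response.

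Over the 18 libraries the levels of the subunits rose and fell together to different degrees. As a description, Pearson's r of log2 CPM was 0.912 for Il27 and Ebi3, 0.866 for Il12b and Ebi3, 0.808 for Il10 and Il27 and 0.850 for Il27 and Il10ra. It was -0.619 for Il6 and Il6st, and 0.690 for Il6ra and Il6st. These points share libraries, depth and the step from rest to LPS. Among 10254 other genes with an average log2 CPM of at least 1, those most like Il27 were Cxcl10 (r = 0.986), Cd69 and Ascc3, and those most like Ebi3 were Nrp2 (0.987), Csf2rb and Cysltr1. Mcoln2 (0.962), Plpp1 and D330045A20Rik were most like Il12b. Treml2 (0.905), Npc2 and Casp8 were most like Il10, and Sumo2 (0.913), Pdcl3 and Dbt were most like Il6. Outside KO with LPS, Il6 held 10 counts at most in a library, so its correlations rest on few reads. Serpinb8 (0.952), Cmklr1 and Skil were most like Il10ra, Man1c1 (0.957), Foxn3 and Mtmr10 most like Il6st, and Dmxl2 (0.908), Eml3 and Fam117b most like Il6ra. In bulk RNA, fewer cells with a transcript and less of it per cell cannot be told apart.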

How the data were processed

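RNA was sequenced in 18 libraries, 3 in each of 6 groups, taken from the labels. The authors trimmed reads with cutadapt 1.8.3, aligned them to mm10 with HISAT2 2.1.0 and used featureCounts 1.5.3 to count them by strand for Gencode M15 genes. The deposited values are raw counts per protein-coding gene, from 4071084 to 19818043 per library, with an exon length. Counts were analysed in R 4.3.3 with edgeR 4.0.16. The filterByExpr function kept 11357 genes, counts were scaled by TMM, and 1 quasi-likelihood fit held all 18 libraries with a coefficient for each group. All 11 comparisons used two-sided tests. The Benjamini-Hochberg adjustment covered each gene tested, and calls needed an adjusted p under 0.05. A standard error is the log2 difference over the square root of F. CPM are per 1000000 of TMM-scaled library size. Floors are 3 counts per library, and floors and exact intervals of count ratios (95%) cover counting error only. The labels name 3 mice per genotype but tie no number to a mouse, so p values measure the spread between these cultures. With 3 against 3 an exact permutation of labels cannot go below 0.1. The procedure was tested on simulated data.

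The members and lists were chosen with earlier results of these data known. All 10 members are named. List genes were named from those called, by size of difference, and the 3 genes most like a member by Pearson's r of log2 CPM (prior count 2). Any other gene was named after its values were seen. Alternatives were RLE factors, DESeq2 1.42.0, no filter, the compared groups alone, a replicate block, limma-voom 3.58.1 with quality weights, and each library left out. Leaving out both libraries that stand apart was chosen after seeing the data. Positions and 3′ UTRs come from Gencode vM21 of the same build, microRNA and promoter sequences from RefSeq. Promoters for 6 of the 10 members were in the table used. Results of some listed genes are not reported here.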

Additional observations from a re-analysis of the deposited data

How the results depend on the processing

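In 3F against WT, at rest and with LPS, and in both differences of the LPS response, 0 members were called under every alternative. The count stayed between 4 and 7 for LPS in WT and between 4 and 5 for LPS in 3F. With a single library left out, the count ran from 3 to 6 for LPS in KO, from 1 to 2 for KO against WT at rest, from 1 to 3 for KO against 3F at rest, and was 0 for KO against 3F with LPS. For KO against WT at rest, 1 member was called in the fit of the compared groups and 1 with quality weights. For KO against WT with LPS these gave 1 and 3, and the replicate block gave 1. For KO against 3F at rest, DESeq2 called 4, no filter 3, quality weights 3, the replicate block 2, the compared groups 0, and leaving out both libraries that stand apart 2. For KO against 3F with LPS, no filter called 0, the compared groups 3 and quality weights 4. The cause was not tested. The share of all genes called under each alternative is not given, so these counts show only how the member calls moved. Of 704 alternative values of 56 single differences, 610 kept their side of the threshold, 64 lost their call, 30 gained one and 0 changed direction.

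The labels do not say that a replicate number marks a mouse, so the samples were taken as unpaired. Within a genotype, deviations of resting and LPS libraries with the same number correlated at 0.0283 to 0.318, over 0.1 in 5 of 9 pairs, and 15 of 18 libraries correlated best with their own number, a hint from the data and not from the design. Among members, the block added the calls of Il6st for LPS in WT, Il6 for KO against WT with LPS and Il6ra for KO against 3F at rest, and removed none. Among the list genes named, it removed Cebpd for KO against WT with LPS (adjusted p 0.0550) and Bcl3 for KO against WT at rest (0.0503).

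Il6, Il12a and Il23a are limited by depth, and each group holds 3 libraries. Proteins were not analysed here.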
